A study of Mus musculus with 62 samples.

Results

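The transcripts of 5 neuropeptides of the suprachiasmatic nucleus (SCN), Avp, Vip, Grp, Prok2 and Nms, were followed across punches of mouse brain. They were chosen by name, as the rows of the deposited count tables whose Ensembl identifiers carry these symbols. All 5 were among the 12047 genes of the SCN table, and 1 of them, Vip, was among the 11569 genes of the table for the nucleus accumbens (NAc) and prefrontal cortex (PFC). The libraries came from the SCN (n = 19), NAc (n = 26) and PFC (n = 17) of C57BL/6J mice, with 1 mouse per sample and tissue collected at ZT6. By the protocol text that all samples share, the mice had been through circadian rhythm disruption (CRD), repeated reversals of the light cycle, as adolescents or as adults, or were handled controls, and were killed weeks later, while the study's methods name adolescent CRD and its controls for these tissues. Each library is labelled with its region and a mouse number only. Since neither the group nor the sex of a mouse is labelled, levels are described across libraries, and CRD and sex were not compared.

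The SCN is the master pacemaker of the mammalian brain, and its neurons signal to each other and to the rest of the brain largely through peptides. Vip and Grp are made by neurons of the ventral SCN that receive input from the retina, and Vip, acting on its receptor Vipr2, keeps SCN neurons synchronized. Avp is made by neurons of the dorsomedial SCN. Prok2 is a rhythmic output signal of the SCN, and Nms marks a broad set of SCN neurons that includes many Avp and Vip cells. Avp and Prok2 are textbook clock-controlled genes, whose transcription is driven by CLOCK and BMAL1 at E-box sequences, while Vip transcription is driven mainly by calcium and cAMP signals through cAMP response elements (CRE). Outside the SCN, Avp is abundant in magnocellular hypothalamic neurons, and Vip marks a class of GABAergic interneurons of the neocortex.

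Sequences upstream of the genes were read from RefSeq on GRCm38.p6 because Avp and Prok2 are known as E-box targets and Vip as a CRE target. Each is the 250 bases before the annotated start, 5′ to 3′ on the strand of the gene, with any match to the E-box CACGTG, the CRE TGACGTCA, its half-site TGACG or the D-box TTATGTAA in capitals, searched on both strands. The half-site is contained in the full CRE.
Avp, chr2:130582589-130582838, minus strand: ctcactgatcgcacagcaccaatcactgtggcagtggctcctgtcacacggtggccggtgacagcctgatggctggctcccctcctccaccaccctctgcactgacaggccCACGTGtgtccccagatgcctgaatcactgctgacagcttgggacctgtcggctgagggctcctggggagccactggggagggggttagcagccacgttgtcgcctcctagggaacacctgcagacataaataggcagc
Prok2, chr6:99726393-99726642, minus strand: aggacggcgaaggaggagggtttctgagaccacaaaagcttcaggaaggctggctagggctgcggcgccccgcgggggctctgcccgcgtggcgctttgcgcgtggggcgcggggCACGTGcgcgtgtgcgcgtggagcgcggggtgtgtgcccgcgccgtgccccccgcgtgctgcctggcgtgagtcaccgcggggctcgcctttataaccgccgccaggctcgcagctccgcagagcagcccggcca
Vip, chr10:5638968-5639217, plus strand: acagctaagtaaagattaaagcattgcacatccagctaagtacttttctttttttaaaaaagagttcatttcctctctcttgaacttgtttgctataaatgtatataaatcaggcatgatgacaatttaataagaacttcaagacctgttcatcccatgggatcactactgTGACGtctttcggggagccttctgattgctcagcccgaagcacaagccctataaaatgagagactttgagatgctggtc
Nms, chr1:38938899-38939148, plus strand: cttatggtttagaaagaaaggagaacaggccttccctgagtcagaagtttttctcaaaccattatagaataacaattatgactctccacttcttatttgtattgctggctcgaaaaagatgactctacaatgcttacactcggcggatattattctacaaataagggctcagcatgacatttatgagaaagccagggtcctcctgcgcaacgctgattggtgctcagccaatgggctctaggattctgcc
The Avp window held 1 E-box whose first base lay 139 bases before the start, and the Prok2 window held 1 at 135 bases. The Vip window held 1 CRE half-site at 79 bases and no E-box. None of the 4 motifs was found in the Nms window. Of 32851 promoters of the same length, 6.02% held the E-box, 17.8% the CRE half-site, 1.55% the full CRE and 0.819% the D-box. A match is a description of the letters and was not tested as a binding site.

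All 5 peptides were detected in every SCN library, and all 5 passed the filter on low counts. Avp (ENSMUSG00000037727, chr2:130580620-130582554, minus strand) had a median of 117 CPM (the reads of a gene scaled to the depth of its library) and lay between 22.6 and 187 CPM. Vip (ENSMUSG00000019772, chr10:5639218-5647617, plus strand) had a median of 51.8 CPM and lay between 5.07 and 134 CPM. Prok2 (ENSMUSG00000030069, chr6:99711299-99726392, minus strand) had a median of 17.4 CPM and lay between 1.06 and 24.5 CPM. These 3 transcripts thus spread over 8.30-fold, 26.4-fold and 23.1-fold between the lowest and the highest library. Nms (ENSMUSG00000067604, chr1:38939149-38950276, plus strand) had a median of 9.83 CPM and lay between 1.04 and 15.4 CPM. Grp (ENSMUSG00000024517) was the lowest, with a median of 4.14 CPM and values from 0.726 to 8.60 CPM. The reads behind the lowest values were 15 for Grp, 22 for Prok2 and 23 for Nms, so those levels carry the largest counting error, while Avp had at least 426 reads and Vip at least 112 reads in every library. All 5 genes are protein coding, and the counts cover whole genes, including untranslated exons.

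The peptides were among the most variable transcripts of the SCN punches. The SD of log2 CPM across the 19 libraries was 1.21 for Vip, 1.14 for Nms, 1.11 for Prok2, 0.86 for Grp and 0.83 for Avp, against a median of 0.29 over all 12041 genes. Ordered by this SD, Vip ranked 39, Nms 69, Prok2 81, Grp 262 and Avp 298. In a bulk punch, fewer cells of a type and less RNA per cell cannot be told apart, so a low level may mean either.

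**Figure D1:**
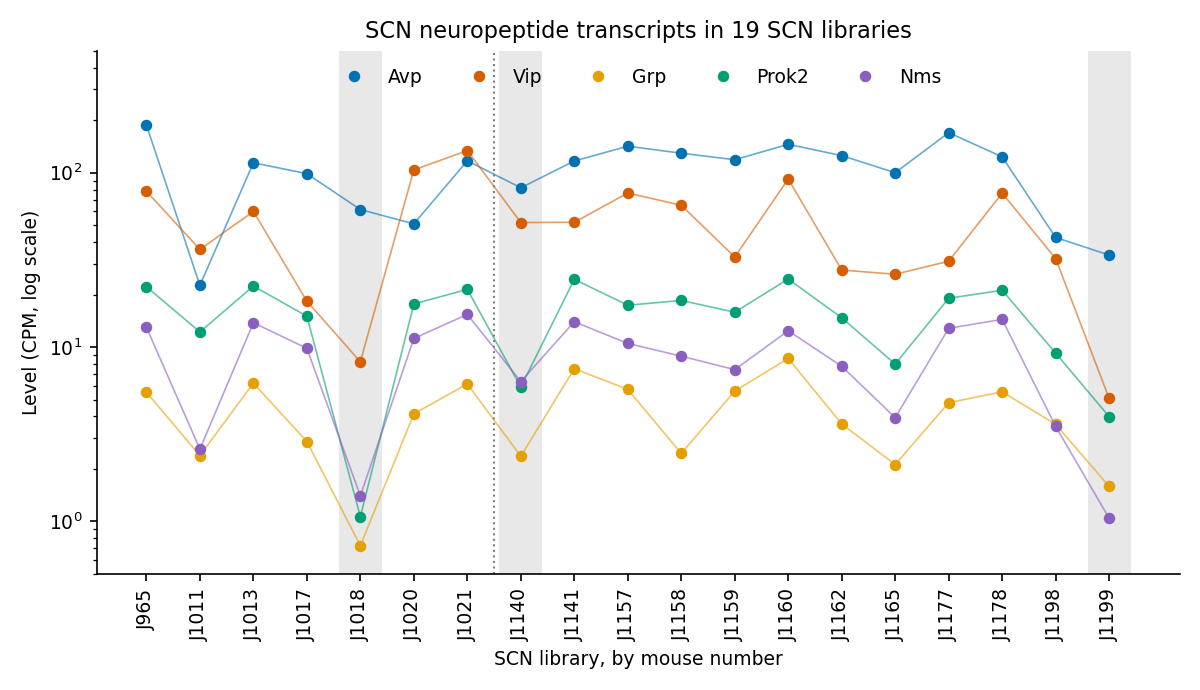
Level of each peptide (CPM, log axis) in the 19 SCN libraries, ordered by mouse number; each point is 1 library, lines join the points of a peptide, the dotted line separates numbers up to J1021 from those from J1140, and grey bars mark J1018, J1140 and J1199. Prok2 fell to 1.06 CPM in J1018 and Vip to 5.07 CPM in J1199, while Avp stayed above 22 CPM throughout.

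The lowest levels were concentrated in few libraries. In J1199, Vip (5.07 CPM) and Nms (1.04 CPM) were at their lowest, and Avp (33.7 CPM), Grp (1.59 CPM) and Prok2 (3.99 CPM) were the second lowest. In J1018, Grp (0.726 CPM) and Prok2 (1.06 CPM) were at their lowest, Vip (8.22 CPM) and Nms (1.40 CPM) were the second lowest, and Avp, at 61.4 CPM, ranked 15 of 19 from the highest. J1011 was different again, with the lowest Avp of all (22.6 CPM) but 36.3 CPM of Vip and 12.2 CPM of Prok2. J1140 was less extreme, with 81.9 CPM of Avp, 51.8 CPM of Vip and 5.89 CPM of Prok2. At the other end, J965 had the highest Avp (187 CPM), J1021 the highest Vip (134 CPM) and Nms (15.4 CPM), and J1160 the highest Grp (8.60 CPM) and Prok2 (24.5 CPM).

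Markers of SCN neurons and of neighbouring tissue differed between these libraries. The summed level of the 5 SCN neuron markers (Six6, Lhx1, Syt10, Gpr176 and Rorb), all present in the table, ranged from 73.1 CPM in J1018 to 353 CPM in J1157, with 94.6 CPM in J1199 and 170 CPM in J1140. Of 7 striatal neuron markers, 5 were in the table, and their sum was 401 CPM in J1199 and 197 CPM in J1140 against 26.4 to 45.1 CPM in the other 17 libraries. Ppp1r1b, which encodes the striatal phosphoprotein DARPP-32, reached 134 CPM in J1199 and 66.9 CPM in J1140, and lay between 2.83 and 9.87 CPM elsewhere. In J1018, Pomc and Cartpt, peptide precursors made by neurons of the arcuate nucleus, were at their highest, at 178 and 79.2 CPM. J1177 also had high Pomc (149 CPM) and Cartpt (62.4 CPM), and its levels were 170 CPM for Avp, 31.0 CPM for Vip, 4.80 CPM for Grp and 12.8 CPM for Nms. Vip was below its median there, and the other peptides, Prok2 included, were above theirs. The cortical glutamatergic markers Slc17a7, Neurod2, Neurod6 and Tbr1 were not among the genes of the SCN table. The part of these tissues in the peptide levels was not tested. Total counts per SCN library ranged from 16496666 to 35389742 (median 22574686), and mitochondrial transcripts and ribosomal RNA held 31.5% to 66.3% of them.

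Between transcripts, levels were compared per kilobase of exon of the coding transcripts. The median was 202 CPM per kilobase for Avp, 33.8 for Vip, 9.82 for Nms, 9.06 for Prok2 and 3.02 for Grp. Avp was above Vip in 19 of 19 libraries, by 1.30-fold to 19.8-fold, and Vip was above each of the other three in 19 of 19. Prok2 and Nms could not be ordered, with Prok2 the higher in 7 of 19 libraries. Grp was below Prok2 in all 19 libraries and above Nms in 1 of 19. The place of Vip depends on its annotated length, because the coding transcripts span 1530 bases and all its exons 3402 bases, with which its median would be 15.2 CPM per kilobase.

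The next comparison asked whether the peptides vary together, and whether Vip and Grp form a set apart from Avp, Prok2 and Nms. All 10 pairs had a positive correlation across the 19 libraries on the log2 CPM scale, given here with permutation p-values that are not adjusted for the 10 pairs. Over all 19 libraries, the correlations did not follow the sets. The median r was 0.79 for the 6 pairs between the sets and 0.75 for the 3 pairs within Avp, Prok2 and Nms. For Vip and Grp, r was 0.75. Between the sets and within Avp, Prok2 and Nms, the median r was 0.76 and 0.69 without J1199 and J1140. The order turned without J1018, at 0.74 and 0.78, and without J1018, J1199 and J1140, at 0.60 and 0.73. The difference between these values was not tested. With all 19 libraries, Grp, Prok2 and Nms were the most tightly related, and Avp was the least related to the rest. This order did not hold in every subset. Among the 12 libraries from J1140, Avp had r = 0.89 with Nms, 0.82 with Prok2, 0.70 with Vip and 0.61 with Grp. There r was 0.90 for Prok2 and Nms, 0.85 for Grp and Prok2 and 0.78 for Grp and Nms. Without J1018, J1199 and J1140, r was 0.73 for Avp and Nms and 0.72 for Grp and Nms.

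Grp and Prok2 had the highest correlation of the 10 pairs, with r = 0.90 and rho = 0.89 (n = 19, two-sided permutation p = 1e-05 for both, the smallest it can give). Prok2 and Nms followed, with r = 0.87 (permutation p = 3e-05) and rho = 0.90 (permutation p = 1e-05), and then Grp and Nms, with r = 0.84 (permutation p = 2e-05) and rho = 0.82 (permutation p = 6e-05). The log2 ratio of Grp to Prok2 had an SD of 0.50 across libraries, below the SD of either transcript alone.

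Vip correlated with Nms at r = 0.82 and rho = 0.70 (permutation p = 6e-05 and 0.00111), with Prok2 at r = 0.76 and rho = 0.73 (0.00053 and 0.00072) and with Grp at r = 0.75 and rho = 0.68 (0.00037 and 0.00205). Avp correlated with Nms at r = 0.75 and rho = 0.60 (permutation p = 0.00067 and 0.00775). Its other relations were looser, with r = 0.56 and rho = 0.57 for Grp (permutation p = 0.013 and 0.0127), r = 0.52 and rho = 0.64 for Prok2 (0.0249 and 0.00359), and r = 0.45 and rho = 0.42 for Vip (0.0492 and 0.0775). The log2 ratio of Avp to Vip had an SD of 1.11, and its lowest and highest values were in J1020 and J1018.

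**Figure D2:**
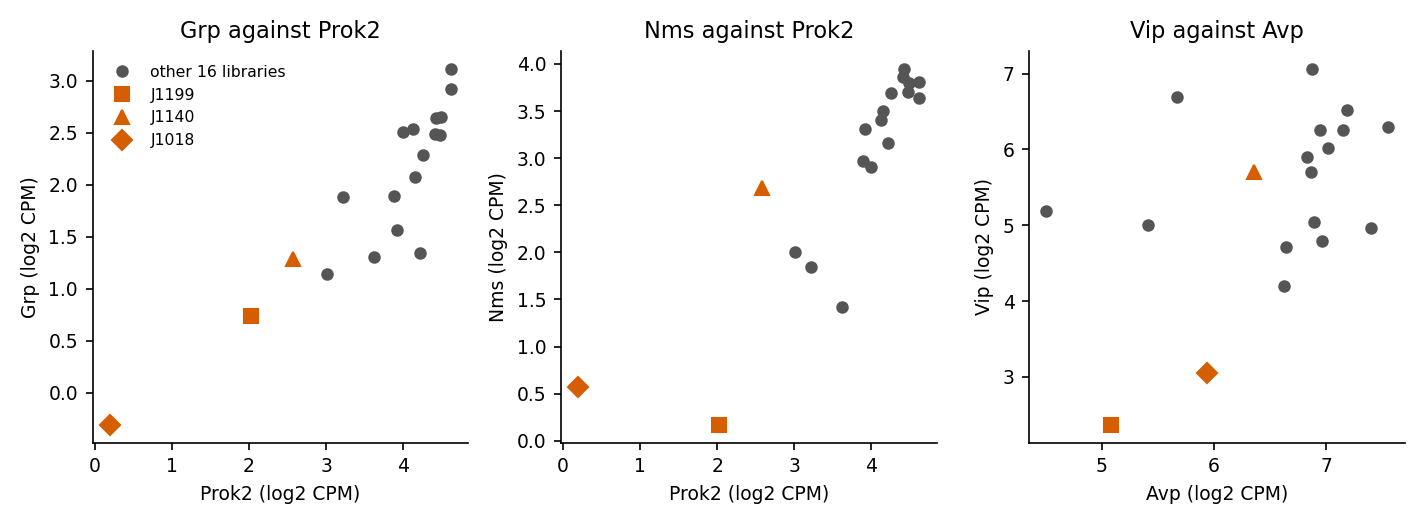
Log2 CPM of Grp and of Nms against Prok2, and of Vip against Avp, with 1 point per SCN library and J1199, J1140 and J1018 marked. Grp and Nms rose with Prok2 (r = 0.90 and 0.87), whereas Vip and Avp were scattered (r = 0.45).

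The same pairs were tested with edgeR's quasi-likelihood test, as the slope of the log2 level of a peptide on the log2 CPM of another, with Benjamini-Hochberg adjustment over all genes. A pair was called only when the adjusted p was under 0.05 in both fits, with each peptide of the pair as the covariate in turn. By this rule, 7 of 10 pairs were called. The share of all 12040 genes called at this threshold, in either direction, was 1.34% with Avp, 1.11% with Vip, 1.08% with Grp, 1.29% with Prok2 and 2.72% with Nms. Per unit of log2 Prok2, Grp rose by 0.75 ± 0.09 (SE; adjusted p = 0.000274) and Nms by 0.88 ± 0.12 (adjusted p = 0.000709). Per unit of log2 Vip, Nms rose by 0.70 ± 0.14 (adjusted p = 0.0191) and Grp by 0.53 ± 0.12 (adjusted p = 0.030). The 3 pairs not called joined Avp to Vip (adjusted p = 0.405 and 0.617, by covariate), Grp (0.162 and 0.193) and Prok2 (0.198 and 0.279).

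Without J1199 and J1140, r stayed positive in all 10 pairs. It was 0.88 for Grp and Prok2, 0.88 for Prok2 and Nms, 0.85 for Grp and Nms, 0.78 for Vip and Prok2, 0.75 for Vip and Grp, 0.74 for Vip and Nms, and 0.69 for Avp and Nms. For Avp it was 0.49 with Grp, 0.43 with Prok2 and 0.28 with Vip. By the edgeR test, 3 pairs were still called, those among Grp, Prok2 and Nms, while leaving out J1199 alone also gave 3 pairs and leaving out J1140 alone gave 7. These 3 pairs were called whichever of the 19 libraries was left out. Leaving out J1018, J965 or J1160 gave 4 pairs each, and leaving out J1018, J1199 and J1140 together gave 1, Prok2 and Nms (r = 0.89).

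Among mouse numbers up to J1021 (the lower range, n = 7), the median r was 0.80 between the sets and 0.66 within Avp, Prok2 and Nms. Among those from J1140 (the upper range, n = 12) it was 0.76 and 0.89. The relation of Avp to Prok2 differed most in value, at r = 0.32 among lower and 0.82 among upper numbers, and that of Avp to Vip was 0.27 and 0.70. The difference between the ranges was not tested. Whether the ranges are batches is not given in the labels.

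The peptides also followed other SCN genes. A score, the mean z-score of 9 SCN transcription factors and neuron genes (Six3, Six6, Lhx1, Zfhx3, Rora, Rorb, Vax1, Syt10 and Gpr176), correlated with Grp at r = 0.83 and rho = 0.80 (permutation p = 1e-05, the smallest it can give, and 7e-05), with Nms at 0.79 and 0.64 (4e-05 and 0.00369), with Vip at 0.78 and 0.75 (9e-05 and 0.00036), with Prok2 at 0.74 and 0.73 (0.00011 and 0.00055) and with Avp at 0.72 and 0.71 (0.00059 and 0.00123). When the 2 libraries with the most extreme score were left out, these r were 0.74, 0.61, 0.58, 0.56 and 0.66. Given this score, the partial r was 0.76 for Grp and Prok2, 0.68 for Prok2 and Nms, and 0.55 for Grp and Nms. It was 0.53 for Vip and Nms, 0.44 for Vip and Prok2 and 0.29 for Vip and Grp. For Avp it was 0.44 with Nms, -0.03 with Prok2, -0.09 with Grp and -0.25 with Vip. With the score as a second term of the edgeR fit, 1 pair was called, Prok2 and Nms, where the share of all genes called was 0.183% with Avp, 0.0581% with Vip, 0% with Grp, 1.16% with Prok2 and 35.7% with Nms.

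**Figure D3:**
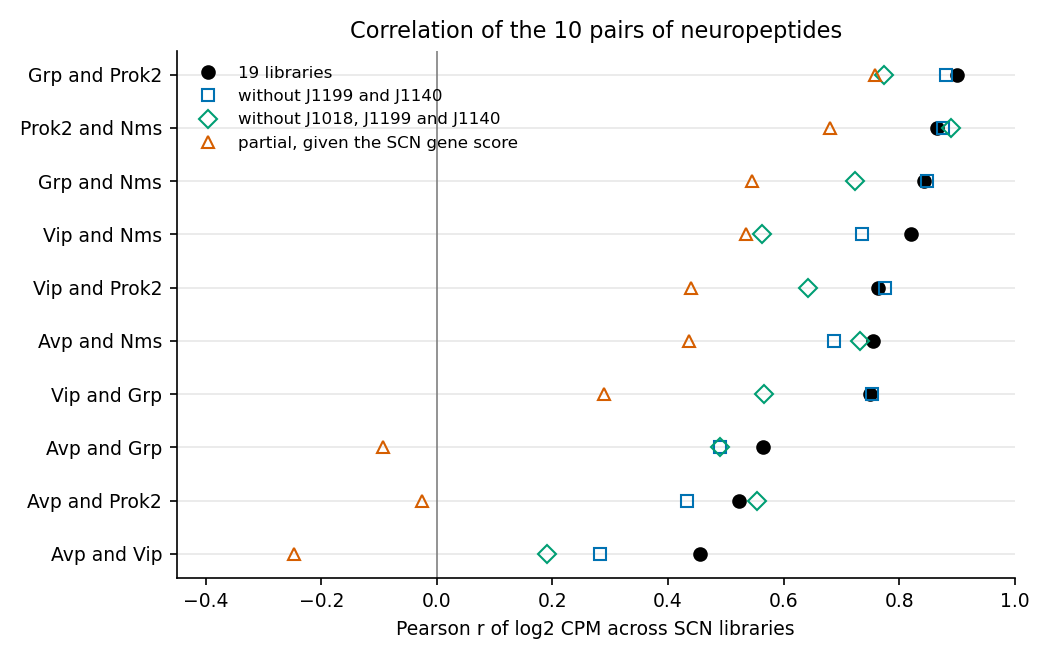
Pearson r of log2 CPM for the 10 pairs of peptides, over 19 libraries, without J1199 and J1140, without J1018 as well, and as the partial correlation given the score of 9 SCN genes; each point is 1 pair in 1 setting. The pairs among Grp, Prok2 and Nms lie at 0.84 to 0.90 over 19 libraries, and the pairs of Avp with Vip, Grp and Prok2 are the lowest in each of these settings, and below 0 given the score.

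Across all genes, those following each peptide were counted by the same test. Avp had 161 (69 rising and 92 falling with it), Vip 134 (59 and 75), Grp 130 (80 and 50), Prok2 155 (73 and 82) and Nms 327 (114 and 213). Without J1199 and J1140 the counts were 38, 29, 60, 34 and 90, of which 36, 22, 51, 32 and 76 were also called in the same direction with all libraries. Without J1018, J1199 and J1140 they were 41, 0, 0, 6 and 20, and when the 2 most extreme libraries of each peptide were left out 52, 0, 0, 34 and 20, so every call with Vip or Grp named here ended in both settings. In the first of these, 684 genes had an unadjusted p under 0.05 with Vip and 648 with Grp by edgeR, and in the second 709 and 809.

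Of the 9 SCN transcription factors and neuron genes, 3 rose with Avp, 5 with Vip, 5 with Grp, 5 with Prok2 and 6 with Nms, and none fell. The share of all genes that rose was 0.573%, 0.49%, 0.664%, 0.606% and 0.947%. Rora, a nuclear receptor that acts on the clock, rose with all 5 peptides, by 0.42 (SE 0.07) to 0.60 (SE 0.10) per log2 unit. Lhx1, a homeobox factor of the SCN, rose with Vip, Grp, Prok2 and Nms, as did Rorb, Vax1 and Syt10, while Six3, a homeobox factor of the developing forebrain, was called with Avp alone and Six6 with Avp and Nms. Syt10, a synaptotagmin enriched in the SCN, was lowest in J1018 and reached 102 CPM in J1021. When J1199 and J1140 were left out, 1, 2, 5, 1 and 2 of the 9 rose, in the same order of peptides, and Syt10 was called with the same 4 peptides, but with neither Vip nor Grp once J1018 was left out as well. The median slope of the 9 genes was 0.53 on Avp, 0.39 on Vip, 0.57 on Grp, 0.41 on Prok2 and 0.46 on Nms, and that of all genes was between -0.002 and 0.007.

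Of the peptide receptors listed, 5 of 10 were in the SCN table. Prokr2, the receptor of Prok2, rose with all 5 peptides, Vipr2 with Avp, Vip, Prok2 and Nms, Avpr1a, a vasopressin receptor, with Vip, Grp, Prok2 and Nms, and Grpr with Grp and Nms. Prokr2 ranged from 4.21 CPM in J1018 to 73.0 CPM in J1160, and Vipr2 was lowest in J1199 and highest in J965 (31.2 CPM). Per log2 unit of Vip, Vipr2 rose by 0.73 (SE 0.16, edgeR adjusted p = 0.0298), and per log2 unit of Grp, Grpr rose by 0.70 (SE 0.13, adjusted p = 0.00947). Adcyap1r1, the receptor of the retinal peptide PACAP, was not called with any peptide (123 to 195 CPM). Without J1199 and J1140, no receptor was called with Vip, Vipr2 was called with Avp, Avpr1a with Grp, Prok2 and Nms, and Grpr with Grp. Prokr2 was then called with none of the 5 peptides.

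Of 12 genes for processing and storing peptides, 1 was called, Scg2, a granin of dense core vesicles, which rose with Grp, Prok2 and Nms and ranged from 317 to 1008 CPM. Scg2 was called with Grp alone without J1199 and J1140. The convertases Pcsk1 and Pcsk2 and the carboxypeptidase Cpe were not called with any peptide. Of 10 other peptides known in the SCN, 8 were in the table and 1 was called, Cartpt, which fell by 0.89 (SE 0.19, edgeR adjusted p = 0.0258) per log2 unit of Vip, with an adjusted p of 0.0407 without J1199 and J1140. Cartpt was highest in J1018, where Vip was the second lowest, and without J1018 as well the call was lost. Sst, Nts, Penk, Cck, Tac1, Gal and Pnoc were not called with any of the 5 peptides. Cck had the highest r with each among them, at 0.57 with Avp and 0.45 to 0.53 with the rest. Penk was highest in J1199 (276 CPM), as was Tac1 (48.3 CPM).

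Of the 17 clock genes, 7 rose with Grp, namely Per1, Per2, Cry1, Nr1d1, Dbp, Hlf and Bhlhe41. With Avp, 3 rose (Per1, Nr1d1 and Dbp), with Prok2 2 (Cry1 and Dbp), and with Nms 3 (Cry1, Nr1d2 and Dbp) while Npas2 fell. None was called with Vip, with which 12 of the 17 had a positive r. Dbp, a clock-controlled transcription factor, had the lowest adjusted p of the clock genes called with Avp, with a slope of 0.33 (SE 0.05, edgeR adjusted p = 0.00255) and r = 0.84, and ranged from 49.3 CPM in J1011 to 101 CPM in J1160. Per2 rose by 0.68 (SE 0.14) per log2 unit of Grp, from 9.10 CPM in J1018 to 65.9 CPM in J1157. After J1199 and J1140 were left out, 3 clock genes were called with Grp (Per1, Dbp and Hlf), 1 with Avp (Dbp), 2 with Nms (Cry1 and Dbp) and none with Prok2 or Vip. With J1018 left out too, none was called with Grp. Per2, Per1 and Hlf were at their lowest in that library. Npas2 was highest in J1199 (19.6 CPM), where Nms was lowest, and was not called with Nms without J1199 and J1140. Whether a clock gene follows Grp more than Vip was not tested.

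Of 10 immediate early genes, 8 were in the table. Sik1, a kinase that limits resetting of the clock by light, rose with Avp, Grp, Prok2 and Nms, and Nr4a1 rose with Avp. Egr1 fell with Nms (0.47 per log2 unit, SE 0.10), and was highest in J1199, at 24.9 CPM. With those 2 libraries left out, Sik1 was called with Avp and Grp, Nr4a1 with Avp and Nms, and Egr1 with none.

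**Figure D4:**
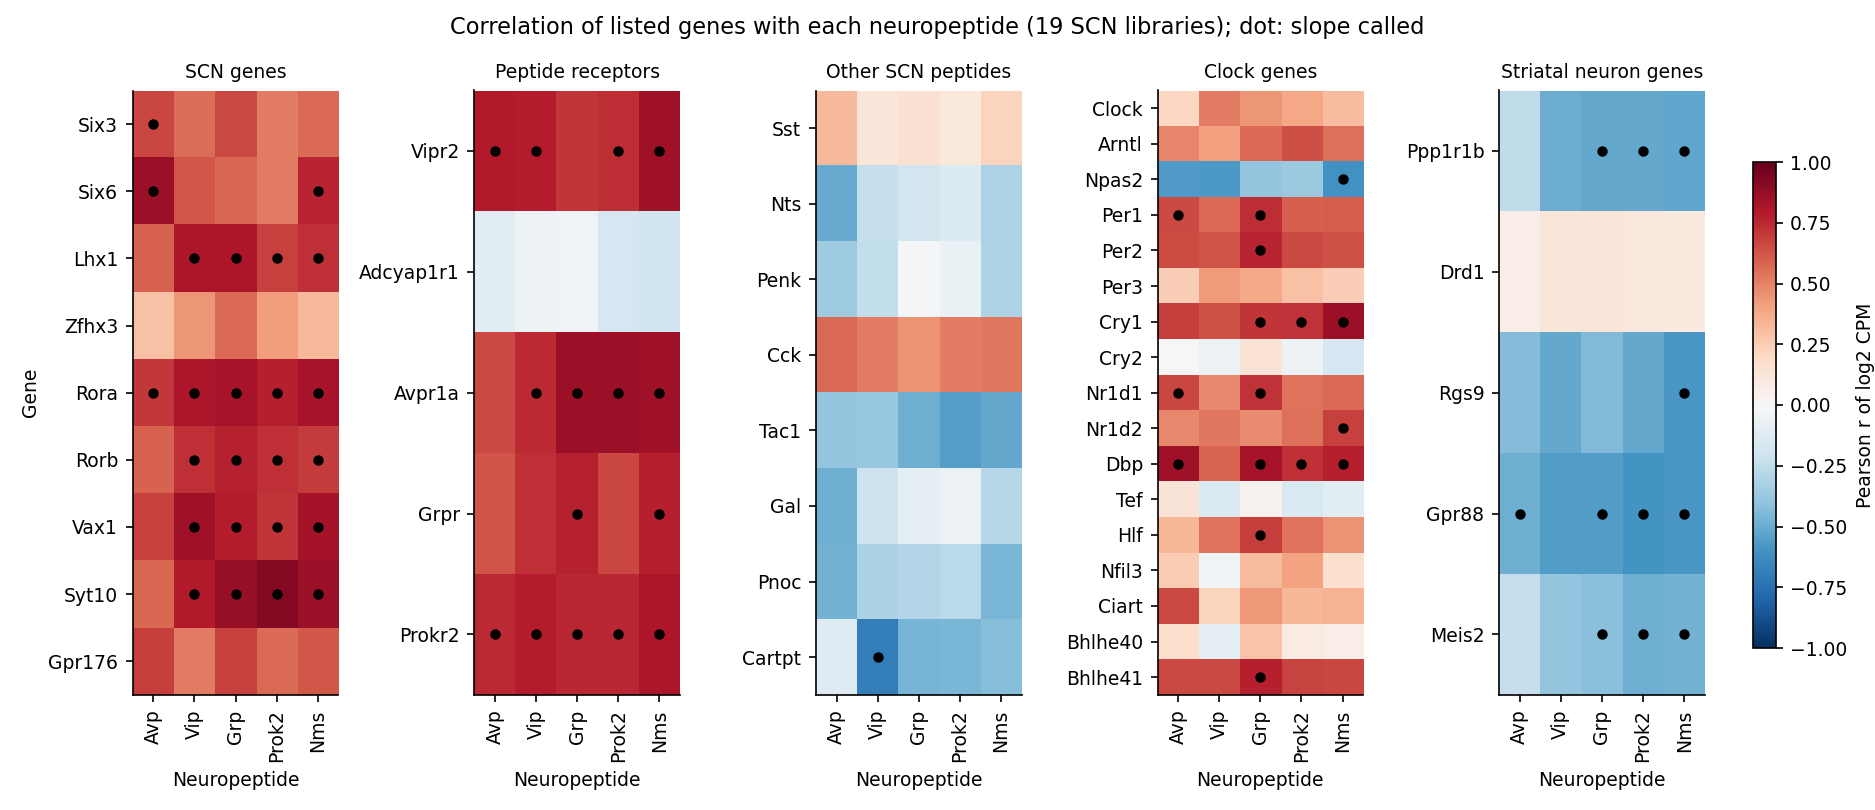
Pearson r of log2 CPM between listed genes (rows) and each of the 5 peptides (columns) across 19 SCN libraries, from -1 (blue) to 1 (red); a dot marks a gene whose slope was called by edgeR at an adjusted p under 0.05. In each column, all 9 SCN genes and 4 of the 5 receptors have a positive r. Dbp is dotted in 4 of 5 and Prokr2 in 5 of 5, and the striatal genes other than Drd1 are blue.

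Markers of other cells were examined for the same reason. Of the 5 striatal neuron markers in the table, 1 fell with Avp, none with Vip, 3 with Grp, 3 with Prok2 and 4 with Nms, where the share of all genes that fell was 0.764%, 0.623%, 0.415%, 0.681% and 1.77%. None of them fell without J1199 and J1140. Drd1, which some SCN neurons also express, was not called over 19 libraries, with r of 0.07 to 0.12 and slopes below 0, and without J1199 and J1140 it rose with Vip and Nms. No marker of ependymal cells (9 genes), oligodendrocytes (9), astrocytes (6) or other hypothalamic neurons (5 of the 11 listed) was called with any peptide. Cartpt, named above with Pomc for the arcuate nucleus, was not on these lists and fell with Vip. Oxt, another peptide transcript of magnocellular neurons, was measured at 3.49 to 62.6 CPM and had r = 0.02 with Avp.

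By rule, the 5 genes most alike to each peptide were those with the highest r across the 19 libraries, leaving out the 5 peptides themselves, of which Prok2 ranked 1 for Grp and Grp ranked 3 for Prok2. For Vip they were Cadps2 (r = 0.91), a priming factor of dense core vesicles, Npy6r (0.87), a neuropeptide Y receptor, Flt3 (0.86), Vax1 (0.85) and St8sia6 (0.84). For Grp they were C1ql3 (0.89), Rgs16 (0.89), a regulator of G protein signaling, Chrna3 (0.88), Syt10 (0.87) and Rasl11b (0.87), and for Prok2 they were C1ql3 (0.94), Syt10 (0.92), Fbxl21 (0.89), Chrna3 (0.89) and Rasl11b (0.87). Grp and Prok2 thus had 4 of their 5 in common. For Nms they were Mcub (0.94), Dusp4 (0.93), Susd1 (0.92), Pkib (0.92) and Rasl11b (0.91), and for Avp they were Susd1 (0.89), Sox3 (0.88), Fam43a (0.88), Dusp16 (0.88) and Tmem51 (0.87). No gene was among the 5 of both Vip and another peptide. Without J1199 and J1140, Cadps2 (0.88) and Npy6r (0.86) were still the closest to Vip, while Vax1 (0.75) ranked 49, and C1ql3 was still the closest to Prok2 (0.94). The 99th percentile of r over all genes was between 0.65 and 0.68 for the 5 peptides, which genes picked for the highest r exceed by rule.

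Vip could also be followed outside the SCN. On counts scaled together over the 11133 genes that both tables hold, Vip was 4.47 to 120 CPM in the SCN (median 46.7), 16.4 to 26.3 CPM in the PFC (median 19.7) and 0.142 to 6.38 CPM in the NAc (median 1.33). The PFC and NAc did not overlap. The SCN overlapped with both, since 14 of 19 SCN libraries were above the highest PFC library and 18 of 19 above the highest NAc library. Within mice, the SCN was above the NAc in 18 of 19 and above the PFC in 11 of 12, and the PFC was above the NAc in 17 of 17. In J1199, the SCN library had the lowest Vip of its region and the NAc library the highest, and it was the mouse in which the NAc was above the SCN.

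By edgeR, Vip was higher in the SCN than in the NAc by 4.72 ± 0.29 on the log2 scale (SE; 26.4-fold; adjusted p = 6.4e-23) and higher than in the PFC by 1.23 ± 0.29 (2.35-fold; adjusted p = 0.000151). Of all 11133 genes, 64.1% and 64.7% were called in these comparisons, with an adjusted p under 0.05 and a change of 1.2-fold or more, 33.1% and 33.7% as higher and 31% and 31% as lower in the SCN. In the NAc, Vip was lower than in the PFC by a log2 difference of -3.49 ± 0.26 (SE; 11.2-fold; adjusted p = 4.86e-16), against 45.4% of 11569 genes called, 23.7% as higher and 21.7% as lower in the NAc. Among the 17 mice with both regions, the difference was -4.32 with the mouse as a block (20.0-fold) and -3.96 without it (15.6-fold).

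Vip was steady in the PFC and varied widely in the NAc. In the NAc and PFC table, its coefficient of variation was 13.8% across PFC libraries, with 525 to 1169 reads, and 85.9% across NAc libraries, with 4 to 410 reads. Across the 26 NAc libraries, Vip followed Slc17a7, the vesicular glutamate transporter of cortical glutamatergic neurons, with r = 0.89 and rho = 0.91 (permutation p = 1e-05 for both, the smallest it can give). Slc17a7 itself had a median of 64.6 CPM and a maximum of 340 CPM in the NAc, and ranged from 543 to 647 CPM in the PFC. The relation was r = 0.88 in the lower range of mouse numbers, 0.95 among upper numbers, and 0.85 when the 2 libraries with the most extreme Slc17a7 were left out. In the 17 PFC libraries it was not seen, with r = -0.46 and rho = -0.23 (permutation p = 0.0663 and 0.372) and r = 0.06 without the 2 farthest libraries. With Slc17a7 as a second term, the NAc was lower in Vip than the PFC by a log2 difference of -1.53 ± 0.23 (2.89-fold, edgeR adjusted p = 3.82e-07). That fit cannot separate region from Slc17a7, because Slc17a7 did not overlap between the NAc and PFC and 1 slope was fitted for both.

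The cortical glutamatergic markers Slc17a7 (-2.77), Neurod2 (-2.27), Neurod6 (-3.53) and Tbr1 (-2.30) were lower in the NAc, as log2 differences, against 21.7% of all genes. Of the 6 neocortical Vip interneuron genes in this table, Cck (-3.19) and Igf1 (-1.51) were lower in the NAc and Npy2r (1.78) was higher, while Calb2 (0.37, adjusted p = 0.296), Crh (0.10, adjusted p = 0.529) and Adarb2 (0.19, adjusted p = 0.299) did not pass edgeR's test. The part of cortical tissue in the NAc level of Vip was not tested.

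**Figure D5:**
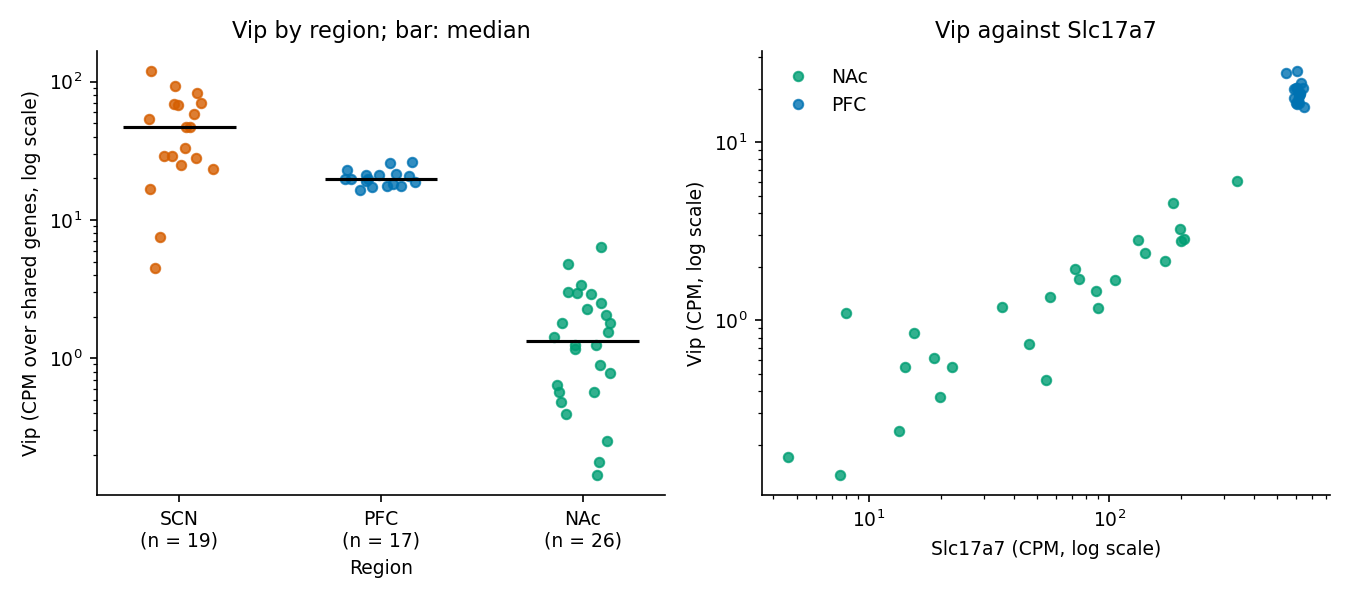
Left, Vip in each library by region (CPM over the genes both tables hold, log axis), with bars at the medians of 46.7 in the SCN, 19.7 in the PFC and 1.33 in the NAc; right, Vip against Slc17a7 in the NAc and PFC libraries (CPM, both axes log), with 1 point per library. Vip rises with Slc17a7 across the NAc libraries (r = 0.89), and the PFC libraries form a tight group above them.

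Vip levels of the same mouse were not found to be related between regions. Over 3 relations, r was -0.05 for the SCN and NAc (n = 19, rho = 0.11, permutation p = 0.841 and 0.662 after Benjamini-Hochberg adjustment), 0.25 for the SCN and PFC (n = 12, rho = 0.38, adjusted permutation p = 0.666 and 0.327) and 0.44 for the NAc and PFC (n = 17, rho = 0.50, adjusted permutation p = 0.244 and 0.137). Before adjustment, the permutation p for the NAc and PFC was 0.0813 for r and 0.0458 for rho. Without the 2 mice farthest from the median, the 3 values of r were 0.24, 0.20 and 0.38.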

How the data were processed

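RNA-seq libraries from the SCN, NAc and PFC were examined. The authors prepared them from 10 ng of RNA, checked reads with FastQC 0.11.7, aligned them to GRCm38 with HISAT2, counted them with HTSeq in union mode, kept genes over a CPM minimum and removed Y-linked genes. The values deposited by the authors are raw counts per gene. Genes were matched by Ensembl identifier, with positions and exon lengths from GENCODE M21 on GRCm38. CPM used TMM factors over the rows kept by filterByExpr, which removed 6 SCN rows, and log2 CPM a prior count of 2. Slopes and regions were tested with edgeR 4.0.16 in R 4.3.3, checked on simulated data, with DESeq2 1.42.0 as an alternative. Permutation tests used 100000 resamples, two-sided, exact with up to 8 samples. Libraries of a region are separate mice. No SCN libraries held identical counts. A mouse number shared between regions was taken to mark the same animal. For the 17 mice with both NAc and PFC, however, deviations from the region means correlated between -0.485 and 0.257 (median -0.0078) and over 0.1 in 7. For the SCN and NAc, these correlations lay between -0.408 and 0.512 (median -0.0097), over 0.1 in 2 of 19 mice. For the SCN and PFC, they lay between -0.309 and 0.383 (median 0.095), over 0.1 in 6 of 12 mice. Named genes are the peptides, the lists given and the 5 other genes most alike to each. A gene of the cortical marker list is not reported here. Members and lists were chosen with earlier results of these data known. Depth was 28879724 to 60009482 counts in the NAc and 31216225 to 50333579 in the PFC.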

Additional observations from a re-analysis of the deposited data

How the results depend on the processing

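The number of pairs of peptides called was 7, and 7 as well with DESeq2, its size factors, all rows, no mitochondrial or ribosomal RNA genes, their share as a second term or the range of mouse numbers as a term. It was 6 without J1165, 3 without J1199 and J1140, 4 without J1018 and 1 without J1018, J1199 and J1140, 1 without the 2 libraries farthest from the median, 1 among lower mouse numbers and 3 among upper ones, 1 with the SCN gene score, and 3 to 7 when each library was left out in turn. Fewer libraries give less power, and with a single library left out the number was 3 without J1199 and 7 without J1140. The 3 pairs called among upper mouse numbers were Avp and Nms, Avp and Prok2, and Prok2 and Nms. The pair called among lower ones was Grp and Prok2. Why the number changed between settings was not tested. The median r between the sets was 0.60 without J1018, J1199 and J1140, 0.52 without the 2 farthest libraries and 0.49 given the score. Within Avp, Prok2 and Nms it was 0.73 without J1018, J1199 and J1140 and 0.89 in the upper range. For those pairs it was 0.61 without the 2 farthest and 0.44 given the score. For Vip and Grp, r was 0.57 without J1018, J1199 and J1140 and 0.89 in the lower range. Their r was 0.53 without the 2 farthest and 0.29 given the score. Given the score, r turned to -0.25 for Avp and Vip, -0.094 for Avp and Grp and -0.026 for Avp and Prok2. Of 120 alternative values for single pairs (r, rho or partial r), 103 kept their sign and their side of an unadjusted permutation p of 0.05. Another 14 kept the sign but their permutation p was no longer under 0.05, and 3 reversed in sign.

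Genes called with Avp, Vip, Grp, Prok2 and Nms numbered 161, 134, 130, 155 and 327, and 38, 29, 60, 34 and 90 without J1199 and J1140. They were 52, 0, 0, 34 and 20 without the 2 farthest libraries, where 709 and 809 genes had an unadjusted p under 0.05 with Vip and Grp by edgeR (DESeq2 was not run on these subsets), and 41, 0, 0, 6 and 20 without J1018, J1199 and J1140, with 684 and 648. Without J1018, 58, 75 and 374 were called with Vip, Grp and Prok2. DESeq2 called 357 with Avp, 255 with Vip, 322 with Grp and 378 with Prok2, and 463 with Nms. With the SCN gene score, 22, 7, 0 and 4304 were called with Avp, Vip, Grp and Nms (1054 unadjusted with Grp), and why Nms rose was not tested. With each library left out in turn, the counts ranged from 44 to 273 with Avp, 32 to 208 with Vip, 58 to 172 with Grp, 30 to 374 with Prok2 and 105 to 367 with Nms. J1199 gave the lowest for Avp, Vip, Prok2 and Nms and J1160 for Grp, while the highest came without J1011, J1017, J1141, J1018 and J1157. Counts also moved over 1.5 times without J965 (Avp, Vip, Grp and Prok2), J1199 (Grp) and J1021 and J1160 (Vip).

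Vip kept its direction and call in all region comparisons under all alternatives, including the mouse number as a replicate block, with which the log2 difference was -4.32 for the NAc against the PFC, 4.66 for the SCN against the NAc and 1.11 for the SCN against the PFC. The relation of Vip between the SCN and NAc of a mouse, r = -0.05, was 0.24 without the 2 farthest mice, 0.034 in the lower range, 0.24 without J1199 and J1140 and 0.11 as rho, and it was not called in any setting. Grp rested on 15 to 310 reads and Vip in the NAc on 4 to 410, so low values carry the most counting error. Leaving out J1018, alone or with J1199 and J1140, each library in turn and, for the gene counts, the 2 farthest libraries was chosen after seeing the data.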
